A study of Mus musculus with 173 samples.

Results

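The 39 rows of the expression table that carry the symbol of a GABA or glutamate receptor subunit are described here, out of 23307 rows in all. They were chosen by name alone: symbols that begin with Gabra, Gabrb, Gabrg, Gabrd, Gabbr, Gria, Grik, Grin or Grm and go on with a digit or end there. The set holds 6 GABA-A alpha, 3 beta and 4 gamma or delta subunits, 2 GABA-B subunits, 4 AMPA, 5 kainate and 7 NMDA subunits, and 8 metabotropic glutamate receptors. The study profiled cells of the dentate gyrus of the hippocampus from C57BL/6 mice aged 8 to 12 weeks, 1 cell per library, to describe quiescent neural stem cells and the cells they first give rise to. Titles put the 172 libraries into 3 classes, N with 26, R with 4 and C with all the rest, and nothing in the labels says what the letters mean. Strain, age, tissue and library kit are the same for all 3 classes, and no treatment or mutation is named. A row for the fluorescent protein eCFP shows that the authors looked for a transgene, but the labels name neither its promoter nor the cells it marks, nor any sort or animal.

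GABA-A receptors are chloride channels built from alpha, beta and gamma or delta subunits, while GABA-B receptors are pairs of 2 G protein-coupled subunits. AMPA, kainate and NMDA receptors are cation channels opened by glutamate, and metabotropic glutamate receptors act through G proteins. Neural stem cells and newborn cells of the adult dentate gyrus are known to sense GABA before they form synapses, and astroglia carry some of the same receptors.

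Values are TPM, which scale reads by transcript length and by library, so levels of different subunits can be set side by side. Depth is not kept in this unit and stays unknown. Between 1600 and 7192 genes reached a TPM of 1 per library. The mean and SD over libraries were 3734 ± 930 for C, 3512 ± 939 for N and 3199 ± 618 for R. Gapdh was listed at 0 in 2 libraries, so a 0 is only called a listed 0. Each class counts as 1 sample since no animal is named, hence no test was made, and every SD and interval below covers the spread between libraries or counting error only. A list of 13 neural stem cell markers had a mean of 6.51 ± 1.59 in C, as log2(TPM + 1), 2.99 ± 1.02 in N and 4.50 ± 1.10 in R, and 12 of its 13 genes were detected in at least 25% of C libraries. A list of 10 neuron markers averaged 7.68 ± 0.69 in R against 0.97 ± 1.13 in C and 1.46 ± 1.39 in N. Of the 26 N libraries, 9 lay in a cluster led by oligodendrocyte precursor markers and 11 in a cluster led by endothelial markers. In 8 C and 5 N libraries the neuron list averaged at least 3, and the main counts are also given without these 13 libraries. In addition, 4 C libraries had eCFP below 1000 TPM and 1 N library had it above.

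The sequences just upstream of 5 subunit genes are shown. In C, Grm3, Gabra4 and Gabbr1 were among the frequent subunits, while Gabrg1 (7.04%) and Grin1 (8.45%) were rare. They are not the ends of the range, and other subunits were rarer, such as Grm8 (0.70%). Gria2 and Gabrb1, more frequent than these 5, are not shown. The windows are 100 bases long, 5′ to 3′ along the gene's strand, from RefSeq on the build GRCm38.p6, with CG dinucleotides in capitals, and lie outside annotated exons. They run as Grm3 chr5:9725353-9725452 (minus strand), Gabra4 chr5:71658364-71658463 (minus, ending 55 bases before the start site), Gabbr1 chr17:37045866-37045965 (plus), Gabrg1 chr5:70842618-70842717 (minus) and Grin1 chr2:25319188-25319287 (minus).
Grm3: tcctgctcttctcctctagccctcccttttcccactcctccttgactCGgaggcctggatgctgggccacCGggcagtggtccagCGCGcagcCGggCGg
Gabra4: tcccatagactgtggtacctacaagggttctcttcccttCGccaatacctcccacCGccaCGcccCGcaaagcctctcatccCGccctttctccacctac
Gabbr1: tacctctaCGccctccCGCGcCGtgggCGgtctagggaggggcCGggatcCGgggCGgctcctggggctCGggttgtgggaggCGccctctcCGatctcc
Gabrg1: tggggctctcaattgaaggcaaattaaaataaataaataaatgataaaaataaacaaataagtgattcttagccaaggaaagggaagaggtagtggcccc
Grin1: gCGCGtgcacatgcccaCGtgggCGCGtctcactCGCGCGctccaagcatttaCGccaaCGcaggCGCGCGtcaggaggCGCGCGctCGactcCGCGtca
CG, which reads the same on both strands, occurs 6 times in the Grm3 window, 5 times in that of Gabra4, 11 times for Gabbr1 and 19 times for Grin1, and is missing from that of Gabrg1. At least 1 CG stands in 79.3% of the 32851 promoters of the table, counted over the 100 bases before the start, with a median of 3. Of these windows, that of the rare Grin1 has the most CG and that of the rare Gabrg1 has none. These 5 genes were picked after seeing values and do not span the range of shares in C. Whether the CG count goes with detection was not tested. Of the 39 subunit genes, 26 had an entry in the promoter table.

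Several GABA-A genes are neighbours in the genome. Whether this affects their values was not tested. On chromosome 5, Gabra4 and Gabrb1 lie head to head on opposite strands, with start sites 387 bases apart and overlapping spans, and Gabrg1 and Gabra2 are next to each other. Chromosome 7 holds Gabrg3 next to Gabra5, whose span also overlaps another gene. Whether counting used the strand is not given, so reads from an overlap cannot be told apart between 2 such genes.

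Few subunits were frequent in C. A TPM of at least 1, called detection here, was reached in at least 25% of C libraries by 8 of the 39 subunits, against 22.6% of all genes of the table. Among them were, in falling order of their share, Gria2, Gabrb1, Grm3, Grin2b, Gria1, Gabra4 and Gabbr1. In N, 9 of 39 subunits reached that share (all genes 22.1%), and in R 22 of 39 did (all genes 29.8%), where 1 library of 4 is enough. The shares in C and N are close to the background, so the set as a whole was not rich in frequent genes there. Of the 39 subunits, 25 were detected in under 10% of C libraries. The share of all genes below 10% is not given, so this count is not read as a trait of the subunits.

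**Figure D1:**
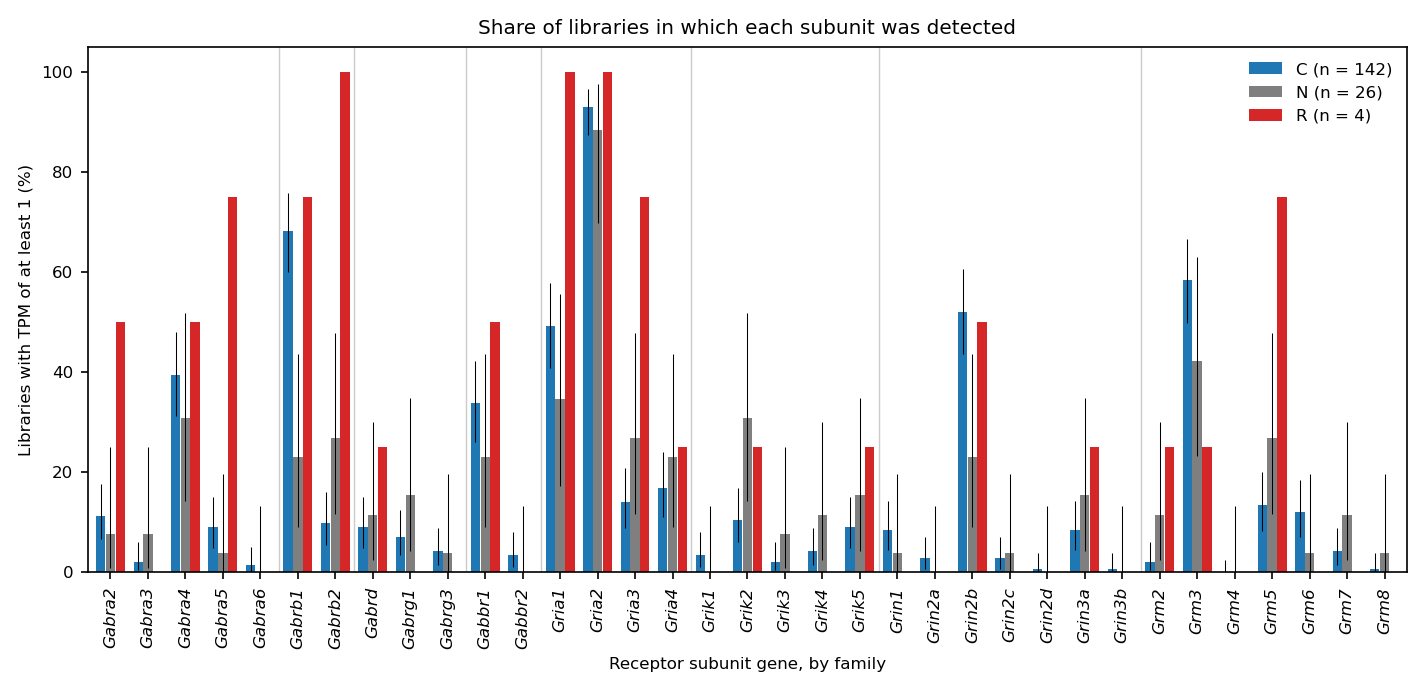
Share of libraries (percent) with a TPM of at least 1 for 35 of the 39 subunits, grouped by family, in C (blue), N (grey) and R (red); black lines are exact 95% intervals for C and N, and those of R, with 4 libraries, are wide and not drawn. Gria2 reached 93% of C and 88.5% of N libraries, while no gamma or delta subunit shown passed 9.15% in C.

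Among the GABA-A alpha subunits, which help form the GABA site, Gabra4 stood out in C. It was detected in 39.4% of C libraries (exact 95% Clopper-Pearson interval 31.3 to 48), with a lowest value of 0, a median of 0.50 and a highest of 1903 TPM. In N it was detected in 30.8% (14.3 to 51.8), from 0 over a median of 0.26 to 6.84 TPM, and the R libraries had 0, 0, 134.01 and 450 TPM. The shares in C and N overlapped in their intervals, while the levels differed: 29.6% of C libraries and 0 of 26 N libraries reached 10 TPM, a count of 0 that allows up to 11.5%. Its mean log2(TPM + 1) was 2.45 ± 3.22 in C and 0.64 ± 0.78 in N.

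Gabra2 and Gabra5, the latter known from extrasynaptic receptors of hippocampal neurons, were uncommon in C. Gabra2 was detected in 11.3% of C libraries (6.58 to 17.7), 7.69% of N and 50% of R, and its highest value was 2263 TPM in a C library whose class median was 0. Without the 8 libraries of high neuron list its share of C was 7.46%. Gabra5 was detected in 9.15% of C (4.97 to 15.1) and 3.85% of N libraries, against 318, 3.09, 0 and 1391 TPM in R1 to R4. Of its 13 detections in C, 5 came from the 8 libraries with a high neuron list. Gabra3 and Gabra6 were detected in 2.11 and 1.41% of C libraries and in no R library.

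Gabrb1 was the leading GABA-A subunit of C. This beta subunit, part of the ring of the channel, was detected in 68.3% of C libraries (60 to 75.9), with 0, 5.17 and 2131 TPM as the lowest, median and highest values. In N it was detected in 23.1% (8.97 to 43.6), with a median of 0 and a highest value of 1053 TPM in N11, whose astrocyte list mean of 7.10 was the highest of N. R1 to R4 had 216, 208, 0 and 8.09 TPM. The ranges of C and N overlapped, but the intervals of their shares did not, and 46.5% of C libraries against 3.85% of N libraries reached 10 TPM.

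Gabrb2 showed the reverse order. It was detected in 9.86% of C (5.50 to 16) and 26.9% of N libraries (11.6 to 47.8), and R1 to R4 had 338, 236, 40.5 and 36.2 TPM. All 4 R libraries thus lay above 10 TPM, a level reached by 5.63% of C and 19.2% of N libraries, although single C and N libraries reached 484 and 354 TPM. Without the libraries of high neuron list the shares were 6.72% of C and 19% of N.

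The gamma and delta subunits, which set where the receptor sits and which drugs it binds, were each detected in under 25% of C and N libraries. In C their shares ran from 4.23 to 9.15%, and in N from 3.85 to 19.2%. Gabrg1, a gamma subunit also found in glia, was detected in 7.04% of C and 15.4% of N libraries and listed at 0 in all of R, which allows up to 75%. Gabrd, of extrasynaptic receptors, was detected in 9.15% of C and 11.5% of N libraries, and R3 had 279 TPM while R1, R2 and R4 were listed at 0.

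Complete GABA-A sets were therefore rare per library. Any alpha subunit was detected in 47.2% of C libraries, any beta in 71.8% and any gamma or delta in 19.7% (13.5 to 27.2). In N these shares were 46.2, 57.7 and 42.3% (23.4 to 63.1 for any gamma or delta). All 3 kinds together were detected in 10.6% of C (6.03 to 16.8), 15.4% of N (4.36 to 34.9) and 1 of 4 R libraries. An alpha with a beta subunit was detected in 33.1% of C, 38.5% of N and all 4 R libraries. A detection threshold of 0.1 TPM raised the complete share of C to 26.8%, and one of 10 TPM lowered it to 4.93%, so the figure depends on the threshold. Without the 8 C libraries of high neuron list it was 7.46%.

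GABA-B receptors reach the surface as a pair of Gabbr1, which binds GABA, and Gabbr2, which couples to the G protein. Gabbr1 was detected in 33.8% of C libraries (26.1 to 42.2), from 0 over a median of 0.19 to 626 TPM, in 23.1% of N, and at 0, 8.05, 0.50 and 2.84 TPM in R1 to R4. Gabbr2 was detected in 3.52% of C libraries (1.15 to 8.03) and listed at 0 in all of N and R, which allows up to 11.5% and 75%. Both were detected together in 3 C libraries (2.11%), and 4 of the 5 libraries with Gabbr2 were among the 8 of high neuron list. Over all of C, Gabbr1 was detected in 60% of the 5 libraries with Gabbr2 and in 32.8% of those without. Without the 8 of high neuron list, 0.75% of C libraries had Gabbr2 and none had both. With Gabbr2 so rarely detected, this cannot show whether the 2 subunits go together.

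**Figure D2:**
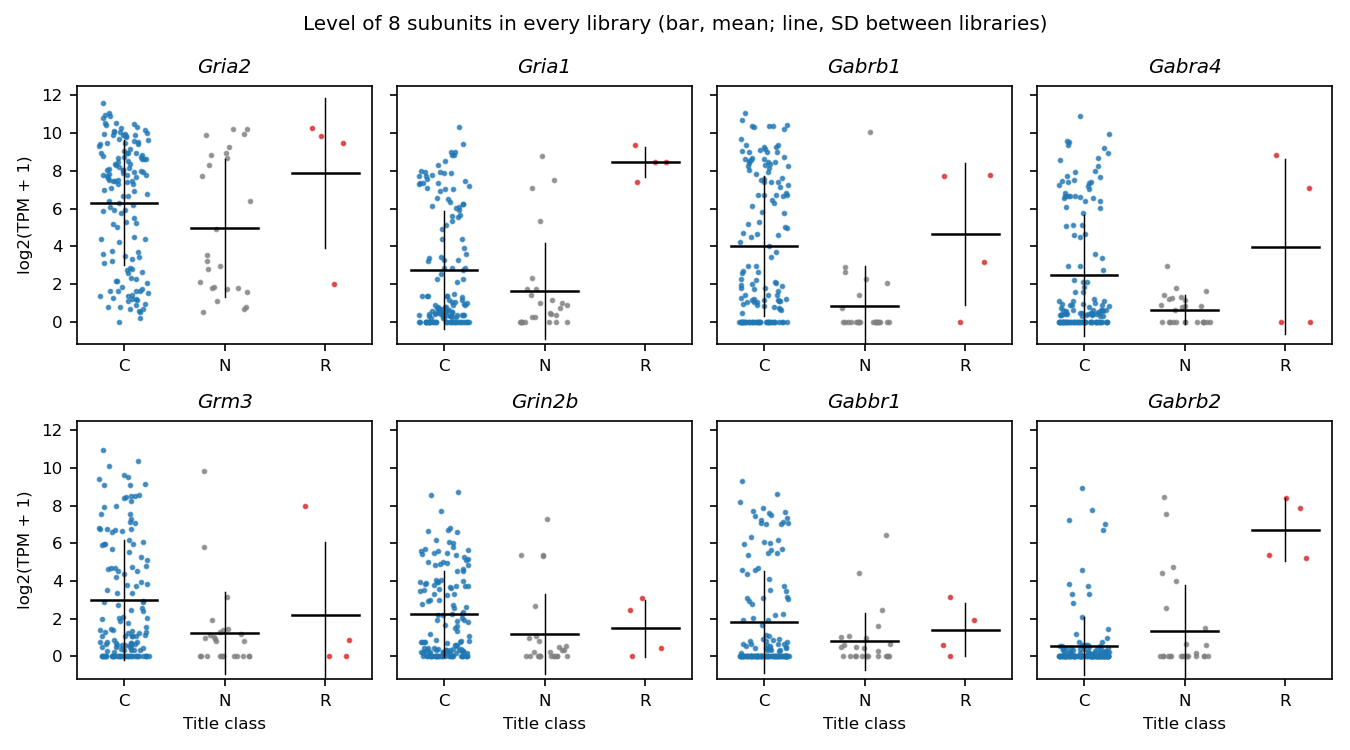
Level of 8 subunits on the log2(TPM + 1) scale in every library of C, N and R (points); horizontal bars are class means and vertical lines the SD between libraries. Gria1 and Gabrb2 were present in all 4 R libraries, and Gabra4 stayed at or below 6.84 TPM in every N library.

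AMPA subunits were the most frequent of the set. Gria2, whose edited form keeps AMPA channels closed to calcium, was detected in 93% of C libraries (87.4 to 96.6), 88.5% of N (69.8 to 97.6) and all 4 of R. Its lowest, median and highest values were 0, 178 and 3064 TPM in C and 0.43, 9.41 and 1208 TPM in N, and R1 to R4 had 904, 713, 1255 and 2.92 TPM. Shares were thus alike within their intervals, ranges overlapped throughout, and the medians of C and N lay far apart. R4 lay well below the other R libraries.

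Gria1, the other main subunit of forebrain AMPA channels, set R apart from C and N more than Gria2 did. It was detected in 49.3% of C libraries (40.8 to 57.8), with a median of 0.94 and a highest value of 1283 TPM, and in 34.6% of N (17.2 to 55.7), with a median of 0.50 and a highest value of 438 TPM. R1 to R4 had 358, 359, 661 and 171 TPM, a mean log2 level of 8.44 ± 0.80 against 2.75 ± 3.13 in C and 1.63 ± 2.54 in N. All R libraries were high, and only the upper tail of C and N reached them. Of the N libraries, 5 of 5 with a high neuron list had Gria1 and 4 of the 21 others (19%) did. Gria3 and Gria4 were detected in 14.1 and 16.9% of C libraries and in 26.9 and 23.1% of N, and in 10.4 and 13.4% of C without the libraries of high neuron list.

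Gria1 and Gria2 were both detected in 47.9% of C libraries (39.4 to 56.4), 34.6% of N and all of R. Gria2 was itself in 93% of C, so nearly any gene detected in C is found with it. An AMPA subunit without Gria2 was found in 3 C libraries (2.11%) and in 0 of 26 N libraries, which allows up to 11.5%.

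Kainate subunits, which tune release and excitability, were infrequent, at 2.11 to 10.6% of C libraries. Grik2, a pore-forming subunit, was detected in 10.6% of C (6.03 to 16.8) and 30.8% of N (14.3 to 51.8), and R2 had 447 TPM while the other R libraries were listed at 0. Grik5, which needs a partner to form a channel, was detected in 9.15% of C and 15.4% of N libraries and at 10.2 TPM in R1 alone. Grik2 had the lowest difference of all subunits between C and N, -0.83 in mean log2 level. The remaining Grik1, Grik3 and Grik4 were detected in 0 to 11.5% of N libraries and in no R library.

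For NMDA receptors Grin2b alone was frequent, and Grin1, the subunit every channel needs, was not. Grin1 was detected in 8.45% of C libraries (4.44 to 14.3), 3.85% of N and no R library, where the highest value was 0.41 TPM. Grin2b, the glutamate-binding subunit typical of immature cells, was detected in 52.1% of C (43.6 to 60.6), with 0, 1.68 and 421 TPM as lowest, median and highest values, and in 23.1% of N (8.97 to 43.6), with a median of 0.18 and a highest value of 157 TPM. R1 to R4 had 0.35, 7.63, 4.48 and 0 TPM of Grin2b. C exceeded N in share, with intervals that just met, and R stayed low.

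Grin1 with any Grin2 subunit was detected in 9 C libraries, 6.34% (2.94 to 11.7), and in none of N or R. With a threshold of 0.1 TPM that share was 15.5%. Any Grin2 subunit was detected in 52.1% of C, 26.9% of N and 50% of R libraries. Grin1 was thus below detection in R although the neuron markers were high there, and 0 of 4 allows up to 75%. Of the 12 C detections of Grin1, 4 were in the 8 libraries of high neuron list. Without those, Grin1 was detected in 5.97% of C and with a Grin2 subunit in 4.48%. Grin2a, Grin2c, Grin2d, Grin3a and Grin3b were detected in 0.70 to 8.45% of C libraries.

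Grm3 was the most frequent metabotropic receptor in C. Grm3, a receptor that lowers cyclic AMP and is known from astroglia, was detected in 58.5% of C libraries (49.9 to 66.7), with 0, 1.69 and 1965 TPM as lowest, median and highest values, and in 42.3% of N (23.4 to 63.1), with a median of 0.75. Its highest N value, 909 TPM, was in N11, and only R3 of R had it, at 253 TPM. Where detected, its median was 25.2 TPM in C and 1.64 TPM in N, and 37.3% of C libraries reached 10 TPM.

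Grm5, a typical receptor of astroglia and neurons, was detected in 13.4% of C libraries (8.25 to 20.1) and 26.9% of N (11.6 to 47.8), and at 1.86, 295, 0.50 and 5.94 TPM in R1 to R4. Of its 19 detections in C, 6 were in the 8 libraries with a high neuron list. Grm2, Grm6, Grm7 and Grm8 were detected in 0.70 to 12.0% of C libraries. Grm4 was detected in no library, with a highest value of 0.99 TPM, which allows up to 2.11% in C.

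Classes were compared over the 26 subunits that were detected in 5% of libraries or more, a filter passed by 12007 genes. The other 13 (Gabbr2, Gabra3, Gabra6, Gabrg3, Grik1, Grik3, Grin2a, Grin2c, Grin2d, Grin3b, Grm2, Grm4 and Grm8) were too rare. Of the 26, 7 had a mean log2 level at least 1 higher in C than in N, a size reached by 9.98% of all genes, and 0 were at least 1 lower, against 4.19% of all genes. They were Gabrb1 (difference 3.17), Gabra4 (1.81), Grm3 (1.77), Gria2 (1.32), Gria1 (1.12), Grin2b (1.06) and Gabbr1 (1.02, just inside). Gabra2, at 0.36, lay outside. The median difference of the 26 was 0.09, beside 0.17 for all genes, and each of the 7 differences was smaller than the SD between C libraries.

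The differences depended on which N cells were counted. Without the 25 libraries of the clusters led by other markers, which leaves 6 N libraries, 3 of 24 subunits were at least 1 higher in C (13.8% of all genes) and 9 at least 1 lower (14.4% of all genes), and Gria2 turned to -1.06, Grin2b to -0.84 and Gria1 to -0.14. Leaving out instead the 13 libraries of high neuron list gave 6 of 24 higher (12.6% of all genes) and 1 lower (Grik2, -1.04, against 4.83% of all genes), with Gria2 at 2.13, Gria1 at 1.99 and Gabrb1 at 2.85. In libraries with at least 3000 genes 4 of 28 subunits were higher (10.6% of all genes).

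The 4 R libraries held more subunits than the others although they had no more genes. They had 10 to 13 subunits at a TPM of 1, 11.5 ± 1.29, against 6.41 ± 4.21 in C (0 to 25, median 5.5) and 6.27 ± 3.45 in N (0 to 11). Summed over the 39 subunits, R held 2456 to 2935 TPM, against 0.72 to 6603 in C (median 630) and 1.17 to 3556 in N (median 291). Single C and N libraries thus lay above every R library. Of the 26 subunits past the filter, 13 had a mean level at least 1 higher in R than in C (20.9% of all genes) and 0 at least 1 lower (22% of all genes). Against N, 13 were at least 1 higher (23.8% of all genes) and 0 lower (17.5%). Both comparisons share the R libraries.

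Gabrb2 and Gria1 led in R, at 6.16 and 5.69 above C and 5.38 and 6.82 above N. They and Gria2 (1.58 above C, 2.9 above N) were the subunits detected in all 4 R libraries. Gria2 was 0.94 above C without R1, 0.78 without R3 and 3.56 without R4. Gabra5 was 4.70 above C and 4.94 above N, and 2.95 and 3.19 without R4. Grm5 was 2.58 and 1.86 above, but 0.93 and 0.21 without R2. Gabrb1, frequent in C, was 0.65 above C and 3.82 above N. For Gabrd (1.63 above C) the difference came from R3 and for Grik2 (1.61) from R2: without that library they were -0.40 and -0.59. Gabra4, 1.52 above C, was at -0.09 without R4. Medians over the 26 subunits were 0.98 for R minus C and 1.0 for R minus N, beside -0.36 and -0.18 for all genes. Without R2 they were 0.13 and 0.64, without R1 0.62 and 1.47, and in the 2 R libraries with at least 3000 genes 0.14 and 0.53. Their size thus rested on single libraries.

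The R libraries had neuron list means of 6.79 to 8.46, with all 10 markers detected in at least 25% of them, while the inhibitory neuron list averaged 2.0 ± 0.73, with 3 of 10 markers so detected. Those were the peptide genes Sst, in all 4 R libraries at a mean log2 level of 10.07, and Npy, in 75% at 5.81, and the GABA-making enzyme Gad1, in 50% at 3.86. Of the other 7, Gad2 had a mean of 0.25 and Slc32a1, the vesicular GABA transporter, Pvalb, Vip, Lhx6, Dlx1 and Dlx2 were listed at 0 in R. The astrocyte list, 3.18 ± 1.83 in R, ranged from 1.60 to 5.82. Whether the R libraries mix cell types, and what part that would have in their values, was not tested.

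Within C, cells were ranked towards cycling, progenitor-like cells along the first component of genes outside the subunits and marker lists, which held 7.18% of the variance. The ranking took the C cells of 6 of the 8 clusters, in 5 bins of 27 or 28, and was directed so that the cycle and intermediate progenitor lists lie above the stem list. Over the 5 bins the stem list was at 6.53, 7.17, 6.95, 7.13 and 5.26, highest in the second and not in the first. From the first to the last bin the cycle list went from 0.96 to 4.6 and the intermediate progenitor list from 1.27 to 3.23, and the median number of genes from 3732 to 4206.

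Gabra4 had a higher share at the cycling end and 3 subunits a lower one. Its share was 17.9% (6.06 to 36.9) in the first bin, then 46.4, 29.6 and 40.7%, and 63% (42.4 to 80.6) in the last. Gabrb1 stayed between 74.1 and 78.6% over the first 4 bins and was at 44.4% (25.5 to 64.7) in the last. Grm3 went from 53.6% to 70.4% in the middle bins and 29.6% in the last, and Gria1 was at 64.3, 35.7, 44.4, 63 and 37%, with no steady course. The head-to-head neighbours Gabra4 and Gabrb1 therefore went opposite ways.

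Of the 26 subunits 1 was at least 20 points higher in the last than in the first bin, against 17.6% of all genes, and 3 were at least 20 points lower, against 4.01%. Gria2 was detected in 89.3% and 85.2% of cells at both ends, while its mean log2 level was 6.96 ± 3.86 in the first bin and 4.99 ± 3.31 in the last. The 3 lower shares rested on the bins and the threshold: at 10 TPM the Gabrb1 difference was -9.66 points, and with 3 bins it was -16.2, so none of the 3 passed 20 points. Ranking on 2000 genes in place of 1000 left Gria1 at -12.8 points. Without the 8 C libraries of high neuron list, 4 subunits were lower, with no share of all genes given for that setting. The Gabra4 difference was 41.1 at 10 TPM and 20.7 with 3 bins.

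**Figure D3:**
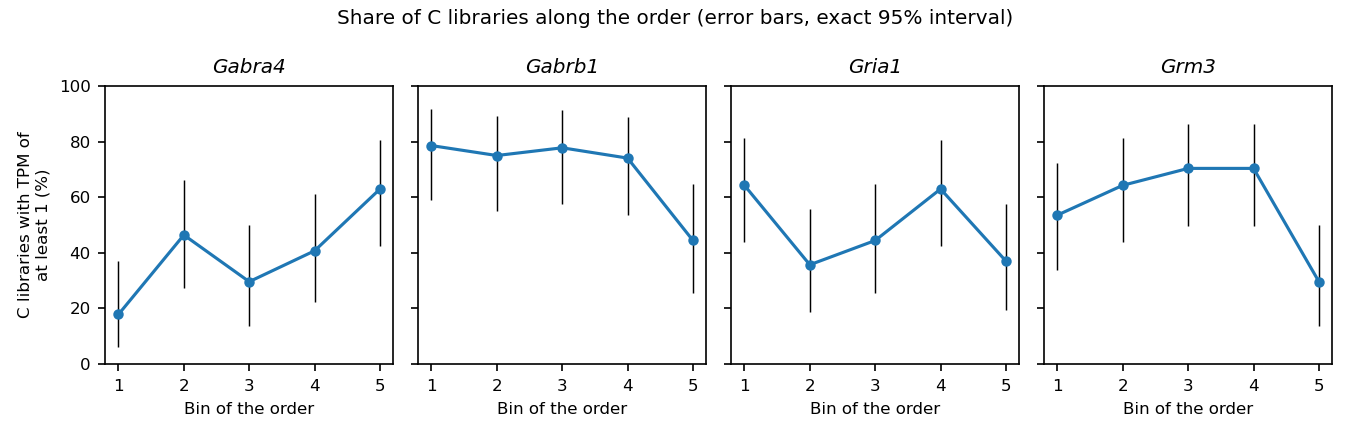
Share of C libraries (percent) with a TPM of at least 1 in the 5 bins of the order that ends with cycling cells (bin 5), with exact 95% intervals, for 4 subunits. Gabra4 goes from 17.9 to 63%, and Gabrb1 from 78.6 to 44.4%, with the change in the last bin.

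The cluster of 16 C cells with the highest cycle list (6.80), 13 of which lay in the last bin, had Gabra4 in 68.8% and Gabrb1 in 31.3% of its cells. High shares of Gabra4 were not particular to it: the cluster with the highest stem list (7.55) and the lowest cycle list (0.68) had Gabra4 in 55.6% of its C cells and Gabrb1 in 72.2%. In the cluster that gave 8 further cells of the last bin, the shares were 41.7 and 33.3%. Over all of C, 36 libraries had both genes, 61 Gabrb1 alone, 20 Gabra4 alone and 25 neither, so Gabra4 was found in 37.1% of libraries with Gabrb1 and 44.4% of those without. Grm3 went with Gabrb1 instead, in 67% of libraries with it and 40% of those without. These shares come from libraries that also differ in the number of genes detected.

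The number of subunits per C library went with the number of genes detected (Pearson r = 0.68, Spearman rho = 0.52, over all C libraries) and with the neuron list (r = 0.69, rho = 0.30), which come from the same libraries. The 8 C libraries with a neuron list mean of at least 3 had 10 to 25 subunits (median 17.5) and 4112 to 7192 genes, the other C libraries had 0 to 18 (median 5) and 1717 to 5700 genes. Among those others, r with the number of genes was 0.45. C63 and C137 had 25 subunits each, with stem list means of 7.54 and 5.30 next to neuron list means of 3.96 and 6.17, whereas C133, with 18 subunits, had a stem list of 2.02 and a neuron list of 7.14. C125 and N14 had none. Whether such libraries hold more than 1 cell was not tested.

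**Figure D4:**
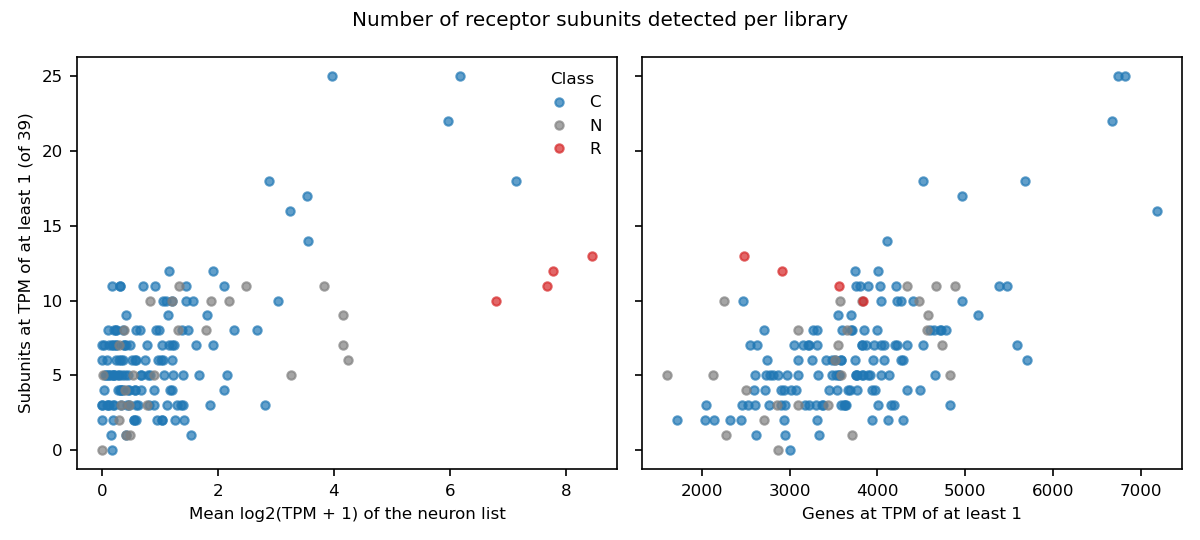
Number of the 39 subunits detected in each library of C, N and R (points) against the mean log2(TPM + 1) of 10 neuron markers (left) and the count of genes detected (right). The R libraries have 10 to 13 subunits at fewer than 4000 genes, and the C libraries with the most subunits also have many genes and high neuron markers.

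Genes that handle the transmitters split in the same comparisons. For all genes, 9.98% were at least 1 higher in C than in N and 4.19% at least 1 lower. These shares stand beside each count of C against N below, and the lists are short. Of the 5 uptake genes past the filter, 3 were at least 1 higher in C than in N and 1 lower. The glial glutamate transporters Slc1a3 and Slc1a2 were detected in all C libraries and were 6.17 and 4.76 above N. Of 7 genes for synthesis and release none passed 1 in either direction, and Glul, which turns glutamate into glutamine, differed by 0.40. Among 9 AMPA and kainate auxiliary genes, Cacng5 was 1.39 higher in C and was detected in 31% of C libraries, while Gsg1l was at -0.30, and none was at least 1 lower.

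Of 7 genes of the inhibitory postsynapse 0 were at least 1 higher in C than in N (9.98% of all genes) and 1 was lower (4.19%). Gabarap and Gabarapl2, also part of autophagy, differed by 0.89 and 0.37. Of 8 excitatory scaffold genes 0 passed 1 either way, among them Dlgap1 (0.22) and Dlg1 (0.10). The chloride importer Slc12a2 and exporter Slc12a5, which set the sign of the GABA response, differed by 0.36 and 0.03 between C and N. Glrb, the glycine receptor beta subunit, differed by -2.25. The other GABA-A subunits and delta glutamate receptors had 1 gene each past the filter, Gabre (-0.26) and Grid1 (0.18).

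Against C, R had 6 of 7 inhibitory postsynapse, 5 of 9 auxiliary, 4 of 7 synthesis and release and 3 of 8 scaffold genes at least 1 higher, and 0, 0, 0 and 1 lower. Slc12a5 was 1.29 higher in R and Slc12a2 was at -1.33. Slc1a3 was at -2.67 and Slc1a2 at -0.96. These counts stand beside 20.9% of all genes higher and 22% lower.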

How the data were processed

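The authors deposited TPM per gene and cell in a single table. Per the submitters' processing notes, RSEM and mm9 were used; the sources used here do not give version, aligner, annotation, strand use or cell filters. Libraries were made with a low-input kit from total RNA, per the labels. Of 172 columns, 171 matched 1 of the 173 titles; the column C27 fits 2 titles and entered C with no sample number.

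Values were analysed as log2(TPM + 1) with Python 3.11.15, numpy 2.4.6, pandas 2.3.3, scipy 1.17.1, statsmodels 0.14.6 and matplotlib 3.10.9. This scale shrinks differences of genes with low values. All libraries had at least 1000 genes. No p-value was computed. Intervals are exact Clopper-Pearson at 95%, and the limit for a count of 0 is 3 counts of the total; both cover counting error only, since depth is unknown. Clusters (8, Ward's method, 15 components of 2000 variable genes) and the order (1000 genes) left out the subunits, marker lists and eCFP. Known shifts put into real C libraries with shuffled class labels were read back by the class means and shares. The clusters and the order were not tested in this way. Doublets were not called. Subunits are named by their share in each family and class, by a C minus N difference past 1, by presence in all R libraries or by a shift along the order past 20 points, plus 4 preset genes. In each family the 2 highest in C and the highest in N and in R are taken. Up to 2 pathway genes per list, those most often detected in C, are named, from 9 pathway lists; 12 marker lists were used. Members, lists and rules were chosen with earlier results of these data known. Leaving out C27, libraries of unusual eCFP or libraries of high neuron list was chosen after seeing the data, as were the single libraries named by their list means. The promoter windows, also picked after seeing values, come from RefSeq on GRCm38.p6, a later build than mm9, so no coordinate was carried across. Some subunits and pathway genes enter the counts but are not reported here by name.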

Additional observations from a re-analysis of the deposited data

Results flagged for a closer look

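In R, the only class of a size at which a lone library was looked for, 8 of 22 subunits with any value had 1 library far from the other 3, measured by its gap to the nearest value over the whole range. The rule is set to pick about 1 in 20 groups of normally spread values, which these are not. With most libraries listed at 0 a lone value is picked more readily. The share of all genes picked is not given, so this count is not read as a trait of the subunits. Gabrd had 279.36 TPM in R3 and was listed at 0 in the others. Grik2 had 447.48 TPM in R2 alone, Grik5 10.2 TPM in R1 alone and Grm2, which lowers glutamate release, 149.67 TPM in R3 alone. Grm3 had 253.22 TPM in R3, Gria4 147.68 TPM in R2 and Grin3a, a subunit that lowers NMDA currents, 152.99 TPM in R4. Gria2 was the reverse case, with 2.92 TPM in R4 below the others.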

How the results depend on the processing

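Most values kept their place under the alternatives: 85 of the main counts and shares were within 1.5 times or their interval and 27 moved, and of the named subunits' differences 596 kept, 22 moved and 9 turned sign. With a pseudocount of 0.1, 4 subunits were lower in C than N (8.11% of all genes). In R, 2 were lower than in C (37.1% of all genes) and 2 lower than in N (30.7%). With 10, 2 were higher in C than N (3.73% of all genes). Rescaling of libraries gave 5, 1 and 2 lower, beside 9.36, 28.6 and 27.5% of all genes. It moved the median of all genes for R minus N from -0.18 to -0.31. With at least 3000 genes per library, which leaves 2 R libraries, 4 were higher (10.6% of all genes) and 1 lower (6.37%) in C than N. Of these subunits, 2 were lower in R than C (26.1% of all genes) and 1 lower in R than N (23.6%). Grik2 (R minus C -0.66) and Grm5 (R minus N -0.75) turned sign. Without libraries of other clusters, 3 were higher (13.8% of all genes) and 9 lower (14.4%) in C than N. Gria1 (-0.14), Gria2 (-1.06) and Grin2b (-0.84) turned sign. Without the 13 libraries of high neuron list, 1 was lower in C than N (4.83% of all genes) and 1 lower in R than N (16.2%). In that setting 0% of C had both GABA-B subunits, and 0.75% had Gabbr2 at all. Leaving out each R library gave 0 to 2 lower in R than C (22.4 to 26.2% of all genes). It gave 0 to 2 lower in R than N (18.1 to 21.9% of all genes). Over these 4 settings, Grik2 ran from -0.59 (without R2) to 2.34 for R minus C, and Gabra4 from -0.090 (without R4) to 2.85. Gabrd, without R3 at the low end, ran from -0.40 to 2.31 for R minus C and -0.20 to 2.51 for R minus N.

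A detection threshold of 0.1 TPM put 14 subunits in at least 25% of C and 17 in N. It put complete GABA-A and NMDA sets in 26.8% and 15.5% of C. At 10 TPM, 1 subunit reached 25% of N, and complete GABA-A sets were in 4.93% of C. The share of all genes at 0.1 or 10 TPM is not given. These subunit counts are therefore not read as a trait of the subunits. Along the order, 10 TPM or 3 bins left 1 subunit past 20 points, also without a share of all genes. The causes were not tested. No paired analysis was possible because the library numbers are only names and no test was made. Unknown depth, 4 R libraries and unnamed animals limit every comparison.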
